A study of Mus musculus with 2 samples.

Results

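MHC class II high valve macrophages were 912 of the 18630 mouse mitral valve barcodes kept here, and 912 of the 1503 macrophages among them. A barcode was called a macrophage when its summed C1qa, C1qb and C1qc count reached 10 unique molecular identifiers (UMIs, each a single captured RNA molecule), when Dcn, Col1a1, Col1a2 and Col3a1 gave less than 1% of its UMIs, and when Top2a, Mki67, Cenpf and Birc5 gave fewer than 5 UMIs. It was a member when Cd74, H2-Aa, H2-Ab1 and H2-Eb1 together gave at least 1% of its UMIs. The 591 macrophages under 1% are called MHC class II low macrophages here. The members were therefore chosen on measured transcripts, and any difference between MHC class II high and low macrophages is a description of that choice.

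The cells came from mitral valves, both leaflets included, of C57BL/6J mice at 1 month of age. The Fbn1 C1039G/+ group was 1 library from 3 pooled mice, which carry a missense allele of fibrillin-1 and serve as a mouse model of Marfan syndrome. The wild type group, labelled Fbn1 +/+, was 1 library from 5 pooled mice. Each genotype thus had 1 library and no replicate, so no p-value is given. All intervals are 95% intervals that cover counting error only, and mice, dissection and capture cannot be told apart from genotype.

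Major histocompatibility complex (MHC) class II molecules carry peptides from engulfed proteins to the surface of antigen-presenting cells, where CD4+ T cells read them. Their genes are switched on together by the transactivator encoded by Ciita, which is recruited by factors bound to the X and Y boxes of class II promoters. In heart tissue of mice, macrophages with high MHC class II have been described beside Lyve1+ resident macrophages with low MHC class II, and Ccr2 marks cells that are replaced from blood monocytes.

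The promoters of 3 class II genes are shown because transcripts of such genes set the members apart and because these boxes are how the class II genes are known to be read together. The windows run from 250 bases before to 50 after the annotated start, 5′ to 3′ on the strand of the gene, and come from RefSeq on GRCm38.p6. H2-Aa is the window chr17:34287774-34288073 on the minus strand, H2-Eb1 is chr17:34305617-34305916 on the plus strand and H2-DMb1 is chr17:34152941-34153240 on the plus strand. Capitals mark the X box core TAGCAAC and the Y box CTGATTGG, or its core ATTGG where the longer form was not matched on the strand shown.
H2-Aa: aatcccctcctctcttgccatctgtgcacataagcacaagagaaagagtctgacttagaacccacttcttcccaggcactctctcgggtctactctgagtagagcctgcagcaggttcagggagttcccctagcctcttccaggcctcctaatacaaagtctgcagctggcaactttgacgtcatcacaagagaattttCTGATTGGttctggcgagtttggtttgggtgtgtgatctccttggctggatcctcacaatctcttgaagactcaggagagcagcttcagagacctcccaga
H2-Eb1: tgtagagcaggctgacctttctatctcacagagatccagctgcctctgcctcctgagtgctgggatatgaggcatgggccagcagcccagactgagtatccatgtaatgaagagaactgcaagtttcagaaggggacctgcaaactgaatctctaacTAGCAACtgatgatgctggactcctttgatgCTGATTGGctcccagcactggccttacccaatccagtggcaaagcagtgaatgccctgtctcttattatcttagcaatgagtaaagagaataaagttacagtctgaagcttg
H2-DMb1: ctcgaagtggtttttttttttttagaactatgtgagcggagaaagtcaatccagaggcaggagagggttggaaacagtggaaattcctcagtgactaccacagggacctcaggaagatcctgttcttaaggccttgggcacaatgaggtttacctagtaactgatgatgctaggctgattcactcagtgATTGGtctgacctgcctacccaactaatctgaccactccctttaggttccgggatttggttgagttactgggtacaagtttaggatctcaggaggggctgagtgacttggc
Of 9 class II genes looked up, 8 had a window. The letters were searched on both strands, and each ATTGG inside CTGATTGG counts for both. CTGATTGG was found in the windows of 4 of the 8 genes and in 4.10% of all 32851 windows of this length. ATTGG was found for 8 of 8 genes but also in 37.4% of all windows. TAGCAAC was found for 3 of the 8 genes and in 3.66% of all windows, and the longer CNTAGCAAC for 1 gene, H2-Ob, and in 1.91%. The H2-Eb1 window held TAGCAAC 93 bases and CTGATTGG 62 bases before the start, and H2-Aa held CTGATTGG 51 bases before it. In H2-Eb2 the order was the other way, with CTGATTGG 103 bases and TAGCAAC 11 bases before the start. Only exact letters were searched, so a window without capitals for the X box is not shown to lack one. A match is a description of letters in this window and not of a bound site.

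The 2 libraries were of similar depth. The deposited tables held 103663375 UMIs in 9744 barcodes of the Fbn1 C1039G/+ library and 100969482 in 9509 barcodes of the wild type library, and 9440 and 9190 barcodes were kept. A total of 17 barcode sequences occurred in both libraries, of which 2 belonged to a member in either library and 0 to a member in both. Members held 3083753 UMIs in the Fbn1 C1039G/+ library and 4176956 in the wild type library. Their median was 6403 UMIs and 2110 genes per cell in the Fbn1 C1039G/+ library, against 7617 UMIs and 2384 genes in the wild type library. Levels below are CPM, the summed count of a gene scaled to a common total of all UMIs of those cells in a library, which removes the depth difference from a level but not from its precision.

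The label was checked against marker genes. Members had 7248 CPM of C1qa, a chain of complement C1q made by macrophages, in the Fbn1 C1039G/+ library and 6292 in the wild type library. Csf1r, the receptor for the macrophage growth factor CSF1, reached 710.5 and 795 CPM, and 9 of 9 macrophage markers were detected in both libraries. Among the 20 most abundant transcripts of the members, mitochondrial and ribosomal protein genes aside, were Cd74, Apoe, Fth1, Lyz2, Cst3, H2-Eb1, H2-Ab1 and H2-Aa. The C1q genes and the 4 class II genes were used by the rule and check nothing. The other 6 of the 9 macrophage markers, among them Csf1r, were not used by it. Detection alone does not check the label, because 9 of 9 were also detected in interstitial cells of both libraries. Thinned to 3000 UMIs, a Csf1r UMI was found in 86.6% of Fbn1 C1039G/+ members and 87.5% of wild type members. The shares were 1.67% and 1.32% in interstitial cells, and 12.2% and 13.2% in MHC class II high barcodes with at most 2 C1q UMIs.

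Dendritic cells and B cells also carry MHC class II, and their markers were low in members. The 9 dendritic markers summed to 59.7 CPM in members of the Fbn1 C1039G/+ library and 59.1 in members of the wild type library. They included Flt3, a growth factor receptor of dendritic cells, at 2.92 and 1.20 CPM, and Ccr7, which guides dendritic cells to lymph nodes, at 0 in both. Clec10a, which is also on the resident-type list and is given below, was higher than Flt3. In low macrophages the 9 summed to 59.5 and 106 CPM. For comparison, 46 Fbn1 C1039G/+ and 56 wild type barcodes with as much MHC class II but at most 2 C1q UMIs and no B cell marker had 77.9 and 81.0 CPM of Flt3 and 166 and 197 CPM of Ccr7. In these barcodes the 9 dendritic markers summed to 1244 and 1140 CPM. The B cell markers Cd79a and Ms4a1 stood at 0 in Fbn1 C1039G/+ members and at 0.239 CPM each in wild type members. Ighm, the heavy chain of immunoglobulin M, was an exception at 217 and 230 CPM, and Cd79b at 35.4 and 30.2. The 5 T cell markers summed to 1.30 and 5.99 CPM, and the neutrophil genes Ly6g and Retnlg were at 0. Transcripts of the abundant valve interstitial cells were present at low level in members, with Dcn, a collagen-binding proteoglycan, at 335 and 467 CPM.

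Fbn1 itself was at 22.1 CPM in Fbn1 C1039G/+ members and 19.2 in wild type members, a ratio of 1.15 (0.821 to 1.61). The allele changes an amino acid and 3′ counts do not read it, so this level does not check the genotype.

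Members made up a smaller share of macrophages in the Fbn1 C1039G/+ library. They were 439 of 779 macrophages there, or 56.4% (exact Clopper-Pearson interval 52.8% to 59.9%), against 473 of 724 in the wild type library, or 65.3% (61.7% to 68.8%). The difference was -8.98 percentage points (Newcombe interval -13.8 to -4.04). Of all kept barcodes the share differed less, at 4.65% (4.23% to 5.09%) in the Fbn1 C1039G/+ library and 5.15% (4.70% to 5.62%) in the wild type library. That difference was -0.496 points (-1.12 to 0.124), and its interval includes 0. MHC class II low macrophages were 3.602% of barcodes in the Fbn1 C1039G/+ library and 2.73% in the wild type library, and this difference of 0.870 points (0.368 to 1.38) was larger than the counting error.

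Both libraries held male and female cells, told apart by Xist and Y-linked transcripts. Females made up 67.2% of sexed members in the Fbn1 C1039G/+ library and 54.2% in the wild type library. Among female macrophages, members were 56.1% in the Fbn1 C1039G/+ library and 61.0% in the wild type library, a difference of -4.86 points (-12.0 to 2.44) whose interval includes 0. Among male macrophages they were 50.7% and 65.1%, a difference of -14.4 points (-23.1 to -5.33). How far the sexes of the pooled mice bear on the share was not tested.

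The 4 class II genes took a median of 4.85% of a member's UMIs in the Fbn1 C1039G/+ library and 4.92% in the wild type library. The 10th and 90th percentiles were 1.69% and 9.09% in the Fbn1 C1039G/+ library, against 1.70% and 7.92% in the wild type library. The 5 cells nearest the threshold on the inside had 1.04% to 1.10% in the Fbn1 C1039G/+ library and 1.01% to 1.08% in the wild type library. The 5 nearest on the outside had 0.918% to 0.971% and 0.916% to 0.975%. Between 0.5% and 1% lay 35 cells of the Fbn1 C1039G/+ library and 44 of the wild type library, and between 1% and 2% lay 67 and 64. The bins of equal width on the log scale just below and just above 1% held 14 and 15 cells of the Fbn1 C1039G/+ library and 18 and 19 of the wild type library.

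**Figure D1:**
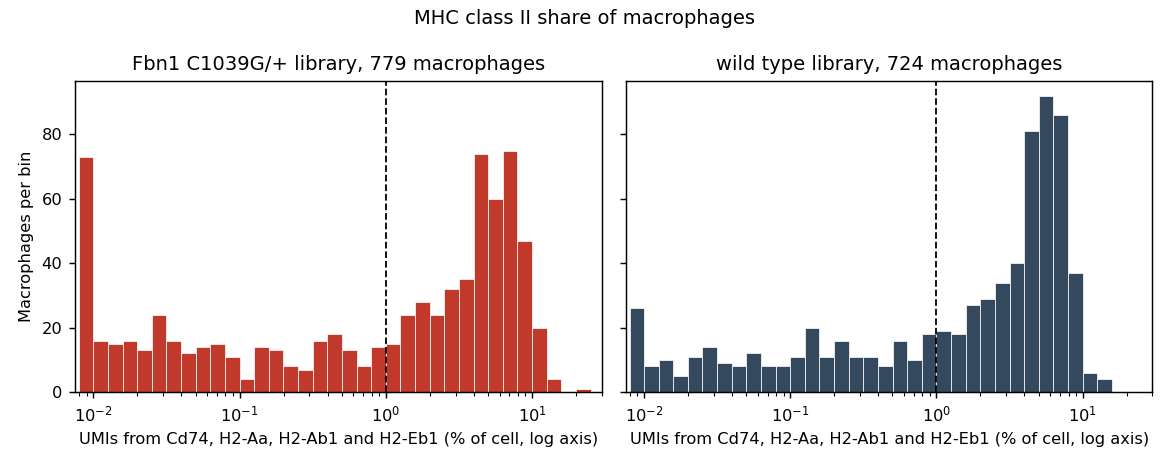
Histograms of the share of UMIs from Cd74, H2-Aa, H2-Ab1 and H2-Eb1 per macrophage (log axis), with the Fbn1 C1039G/+ library left and the wild type library right. Bars count cells per bin, the leftmost bar holds cells under 0.01%, and the dashed line marks 1%: in both libraries the cells form a broad peak between 4% and 10% and a long tail of low values.

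Individual members were not alike, and levels of other genes differed along the class II share. Ciita was at 34.2, 46.8 and 104 CPM in Fbn1 C1039G/+ cells with 1 to 2%, 2 to 4% and at least 4% class II UMIs, against 33.4, 79.6 and 141 CPM in the same bands of the wild type library. H2-DMb1, a chain of the H2-DM complex that loads peptides onto class II, was at 163, 334 and 722 CPM in these bands of the Fbn1 C1039G/+ library and 229.5, 410.4 and 832 CPM in those of the wild type library. Plbd1, a lysosomal phospholipase-like protein, was likewise higher in each successive band of members, at 60.7, 122 and 204 CPM in the Fbn1 C1039G/+ library and 89.7, 157 and 257 CPM in the wild type library. Since the bands were cut on class II transcripts of the same cells, these orders describe the members and test nothing.

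Transcripts of Lyve1+ resident-type macrophages were lowest in the top band. The 7 resident-type markers (Lyve1, Timd4, Folr2, Cd163, F13a1, Cbr2 and Gas6) summed to 560, 655 and 160 CPM in the 3 bands of Fbn1 C1039G/+ members, and to 1172, 721 and 317 CPM in wild type members, so in the Fbn1 C1039G/+ library the middle band was the highest of the 3. Below 0.25% class II the same sum was 3157 CPM in the Fbn1 C1039G/+ library and 3189 CPM in the wild type library. C1qa varied less over the bands, staying between 7055 and 7999 CPM in the Fbn1 C1039G/+ library and between 5812 and 7023 in the wild type library. Cells just above the threshold thus still held resident-type transcripts at a level between those of the extreme bands.

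**Figure D2:**
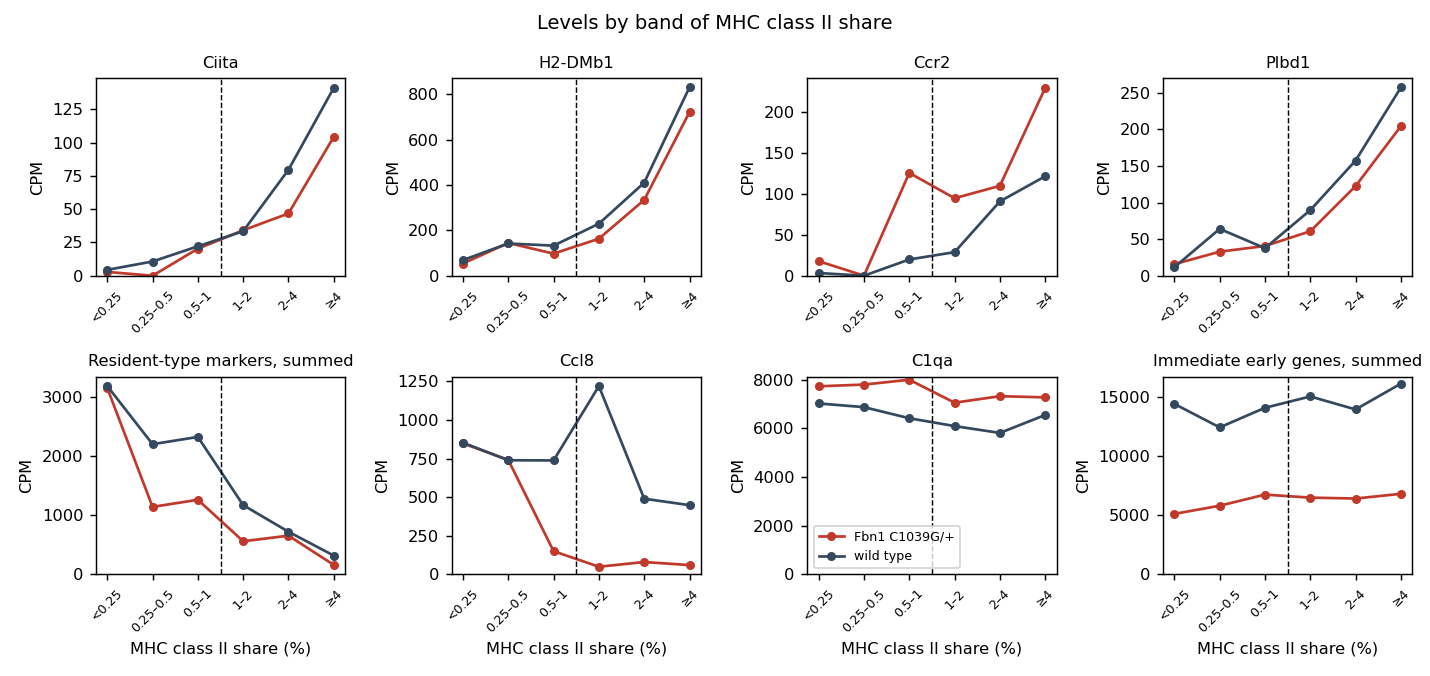
Levels in CPM (linear axes from 0) of 6 genes and 2 sums by band of MHC class II share, with a line for each library and a dashed line at the 1% threshold. Ciita, H2-DMb1 and Plbd1 are highest and the resident-type sum is lowest in the top band of both libraries, C1qa varies less, and the immediate early sum of wild type cells lies above that of Fbn1 C1039G/+ cells in 6 of 6 bands.

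Thinned to 3000 UMIs per cell, which left out 35 Fbn1 C1039G/+ and 16 wild type members of lower depth, few members held both kinds of marker. A Ccr2 UMI with fewer than 2 resident-type UMIs was found in 71 of 404 Fbn1 C1039G/+ members, or 17.6% (14.0% to 21.6%), and in 54 of 457 wild type members, or 11.8% (9.003% to 15.1%). Resident-type UMIs, 2 or more, without Ccr2 were found in 13.1% (9.98% to 16.8%) of Fbn1 C1039G/+ members and 23.9% (20.01% to 28.0%) of wild type members. The same class held 29.75% of interstitial cells of the Fbn1 C1039G/+ library and 27.7% of those of the wild type library, in which Gas6 was at 521.5 and 528 CPM, so the shares in members were not above this background. Without Gas6, a choice made after seeing the data, the share was 8.42% (5.90% to 11.6%) of Fbn1 C1039G/+ members and 16.4% (13.1% to 20.1%) of wild type members, against 1.14% and 0.533% of interstitial cells. On that count 2 Fbn1 C1039G/+ and 3 wild type members held both, or 0.495% and 0.6565%, and 73.3% and 70.9% held neither. A UMI of Ccr2 was seen in 0.192% of interstitial cells of the Fbn1 C1039G/+ library and 0.223% of those of the wild type library, cells of a median 10152 and 10263 UMIs that should lack it, so the share in members lay above this background.

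Between MHC class II high and low macrophages, 126 of 5939 measured genes, or 2.12%, were higher by at least 1.5-fold with counting intervals beyond 1 in both libraries, and 565, or 9.51%, were lower. A gene was measured when it reached 20 CPM in either sum and 50 UMIs over both. The split depended on scaling. The median log2 ratio of all genes was -0.19 in both libraries, and median-of-ratios scaling, which sets it near 0, gave 266 higher and 328 lower genes. With totals that leave out class II, mitochondrial and ribosomal protein genes, the counts were 240 and 405. Ribosomal protein genes took 16.6% and 16.7% of the UMIs of high macrophages in the Fbn1 C1039G/+ and wild type libraries, against 12.15% and 12.65% in low macrophages. Because the rule used this contrast, nothing is read from these shares.

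Ciita and H2-DMb1, genes of the class II pathway itself, were among the 12 highest ratios. Ciita, on chromosome 16 at 10480059 to 10528418 of mm10, was at 78.8 CPM in high macrophages and 3.97 in low macrophages of the Fbn1 C1039G/+ library, and the ratio was 19.9 (11.2 to 39.0). In the wild type library it was at 109 and 8.25 CPM, a ratio of 13.2 (8.52 to 21.5). H2-DMb1 was at 535 and 66.5 CPM in high and low macrophages of the Fbn1 C1039G/+ library and at 630.4 and 88.4 in those of the wild type library, although its counts may be shared with the near-identical H2-DMb2. H2-DMa, the partner chain, was 4.07-fold and 3.98-fold higher. Ctss, the cathepsin S that trims the invariant chain encoded by Cd74, was 1.59-fold and 1.55-fold higher. Of 9 measured genes of class II accessory and loading, these 4 passed, and 0 were lower, beside 2.12% higher and 9.51% lower over all genes. Ifi30, a thiol reductase that opens antigens, was at 436 and 494 CPM in high macrophages of the Fbn1 C1039G/+ and wild type libraries and at 361 and 382 in low macrophages. Of the X box binding factors, Rfxap was at 50.9 and 55.1 CPM in high macrophages of the Fbn1 C1039G/+ and wild type libraries and at 53.6 and 41.2 in low macrophages, and it did not pass. Rfx5 and Rfxank did not reach the level filter. H2-Oa and H2-Ob, chains that dampen H2-DM, were also under the filter, at 8.86 to 13.6 CPM in high macrophages of either library and 0.661 to 2.65 in low macrophages.

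Of 13 measured genes of MHC class I presentation, 0 passed in either direction, beside 2.12% higher and 9.51% lower over all genes. Of 5 measured costimulation genes, Havcr2, an inhibitory receptor also named Tim-3, and Icosl, the ligand of the T cell receptor Icos, were higher in high macrophages. Cd86, which engages Cd28 on T cells, was at 196 and 204 CPM in high macrophages of the Fbn1 C1039G/+ and wild type libraries, against 176 and 209 in low macrophages.

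Genes of monocyte-derived macrophages and of inflammation were among the 12 highest. Ccr2, the receptor for the monocyte attractant Ccl2 (chromosome 9, 124101950 to 124113557), was at 179 CPM in high and 24.8 in low macrophages of the Fbn1 C1039G/+ library, and at 99.4 and 5.89 CPM in those of the wild type library. Itgax, the integrin CD11c, was 5.25-fold and 3.62-fold higher. Napsa, an aspartic protease of lysosomes, was at 127 and 87.4 CPM in high macrophages of the Fbn1 C1039G/+ and wild type libraries, against 16.5 and 13.7 in low macrophages. Il1b, the precursor of interleukin-1 beta, was 5.58-fold and 5.16-fold higher. The others were Plbd1, Spint1, a serine protease inhibitor, Dusp2, a phosphatase of MAP kinases, Cxcl9, a ligand of the T cell receptor Cxcr3, Klra2, a receptor of the Ly49 family, and Slamf7. Chemokines and cytokines as a list had 7 higher and 6 lower of 20 measured, the higher ones being Ccl3, Ccl4, Ccl5, Cxcl9, Cxcl16, Il1b and Pdgfb, while the monocyte attractants Ccl2, Ccl7 and Ccl12 were among the lower ones. Ccl2 was at 282 and 346 CPM in high macrophages of the Fbn1 C1039G/+ and wild type libraries, against 503 and 804 in low macrophages. Of 11 measured monocyte-derived genes 4 were higher, namely Ccr2, Itgax, Fcgr4 and Cd52. The chemokine and monocyte-derived lists stand beside 2.12% higher and 9.51% lower over all genes. Of 7 blood monocyte markers, 2 and 4 were detected in members of the Fbn1 C1039G/+ and wild type libraries, summing to 35.7 and 67.5 CPM, with S100a8 and S100a9 at 0 in both libraries and Ly6c2 at 2.27 and 15.3 CPM. Vcan gave 33.4 CPM of the sum in Fbn1 C1039G/+ members. In interstitial cells the 7 markers summed to 999.7 and 736 CPM, and the part of interstitial RNA in the sums of members was not tested.

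The resident-type list was lower in high macrophages for 16 of 16 measured genes. Lyve1, a hyaluronan receptor, was at 15.9 CPM in high and 235 in low macrophages of the Fbn1 C1039G/+ library, and at 16.5 and 189 in those of the wild type library. Folr2, the folate receptor beta, was at 55.8 CPM in high and 610 in low macrophages of the Fbn1 C1039G/+ library, and at 99.8 and 609 in those of the wild type library. The median log2 ratio of the list was -2.68 in the Fbn1 C1039G/+ library and -2.35 in the wild type library, or -2.49 and -2.17 relative to the median gene. Beside 9.51% of all genes, 8 of 23 lysosome and phagocytosis genes, 9 of 16 lipid and iron handling genes and 7 of 12 complement and coagulation genes were lower, and 0 of these lists' genes were higher. With median-of-ratios scaling the lower counts were 6, 6 and 4, and 2 lysosome and phagocytosis genes were higher, while the resident-type count stayed at 16 of 16. Ctsd, a lysosomal protease, was at 327 and 266 CPM in high macrophages of the Fbn1 C1039G/+ and wild type libraries, against 1229 and 1190 in low macrophages. Lyz2, which was on the monocyte-derived list, was at 6161 and 6912 CPM in high macrophages of the Fbn1 C1039G/+ and wild type libraries, against 12929 and 10987 in low macrophages, and with median-of-ratios scaling 0 genes of that list were lower.

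The remaining lists stand beside 2.12% higher and 9.51% lower over all genes. Interferon response had 0 higher and 1 lower of 22, immediate early genes 0 and 2 of 16, and NF-kB and feedback 1 and 1 of 15. Heat shock genes had 2 and 1 of 9, receptors and transcription factors 2 and 2 of 21, and matrix remodelling 4 and 3 of 13.

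Pigment cell genes were among the lowest ratios. Dct, which makes melanin, was at 1.30 CPM in high and 69.8 in low macrophages of the Fbn1 C1039G/+ library, and at 4.55 and 123 in those of the wild type library. Pmel, Tyrp1 and Ednrb were also among the 12 lowest. So was Gpnmb, which is on the lipid and iron handling list of macrophage genes here and is not 1 of the 4 melanocyte markers. The direction of Pmel turned in female cells (mean log2 ratio 0.10), in male cells (0.24) and at a threshold of 0.5% (0.50), that of Tyrp1 turned in male cells (0.040), and Dct no longer passed in either sex (-0.23 in female cells). The 4 melanocyte markers summed to 6.49 and 7.90 CPM in high macrophages of the Fbn1 C1039G/+ and wild type libraries, against 187 and 284 CPM in low macrophages, and 4 of 4 were detected. The part of pigment cell RNA in this contrast was not tested.

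**Figure D3:**
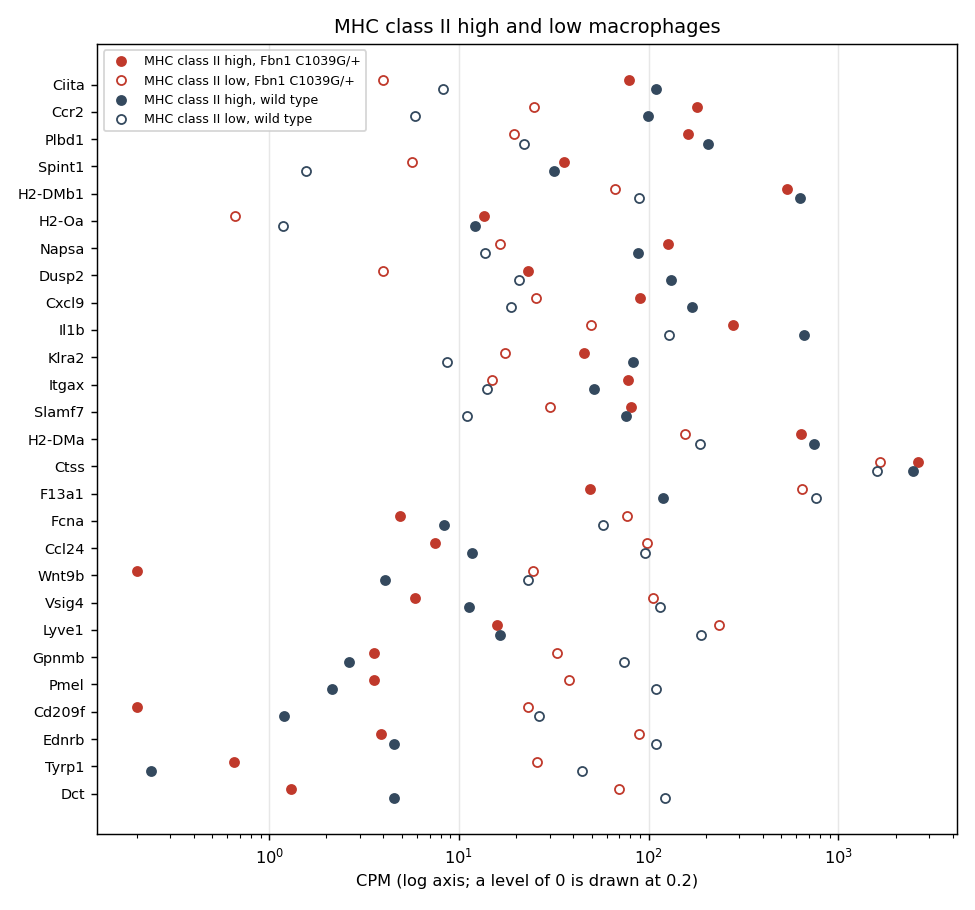
Levels in CPM (log axis) of the 12 highest and 12 lowest genes and of H2-Oa, H2-DMa and Ctss in MHC class II high macrophages (filled) and low macrophages (open), in the Fbn1 C1039G/+ library (red) and the wild type library (dark). For each gene shown the filled points of both libraries lie on the same side of the open ones of their library, and points at 0.2 stand for a level of 0.

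Between genotypes within the members, 148 of 5845 measured genes, or 2.53%, passed as higher in the Fbn1 C1039G/+ library and 295, or 5.05%, as lower. A gene passed when its ratio was at least 1.5-fold and its counting interval excluded 1. The median log2 ratio of all genes was -0.01. In MHC class II low macrophages 141 of 6348 genes, or 2.22%, were higher and 298, or 4.69%, were lower.

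Immediate early genes, transcription factors and regulators that cells switch on within minutes of a stimulus, were lower in Fbn1 C1039G/+ members. Of 17 measured genes, 0 were higher and 15 lower, against the background of 5.05% lower, with a median log2 ratio of -1.26. Egr1, a zinc finger factor, was at 339 CPM in Fbn1 C1039G/+ members and 1411 in wild type members, a ratio of 0.240 (0.225 to 0.256). Atf3, a stress-induced leucine zipper factor, was at 331 and 1281 CPM. Fos, which pairs with Jun in the factor AP-1, was at 1202 and 3381 CPM, and Nr4a1, an orphan nuclear receptor, at 31.1 and 162. The 18 listed genes summed to 6653 CPM in Fbn1 C1039G/+ members and 15389 in wild type members. The same genes in MHC class II low macrophages gave 0 higher and 16 lower of 17, with a median of -1.63, and a sum of 5311 CPM in the Fbn1 C1039G/+ library and 14118 in the wild type library. High and low macrophages thus showed the same direction.

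Genes of NF-kB signalling and its feedback had 0 higher and 12 lower of 16 measured in members, with a median of -0.94, and 0 and 9 of 15 in low macrophages, with a median of -1.05. Over all genes 2.53% were higher and 5.05% lower in members, and 2.22% and 4.69% in low macrophages. Nfkbia, the inhibitor that NF-kB induces against itself, was at 286 CPM in Fbn1 C1039G/+ members and 1044 in wild type members. Tnfaip3, the ubiquitin editor A20, was at 28.9 and 139 CPM, and Nlrp3, the inflammasome sensor, at 29.2 and 92.9. Ptgs2, the inducible cyclooxygenase, was at 4.22 CPM in Fbn1 C1039G/+ members and 37.3 in wild type members, but the 5 highest cells held 92.3% and 50.6% of its UMIs.

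Chemokines and cytokines had 1 higher and 10 lower of 20 measured, with a median of -0.48, beside 2.53% higher and 5.05% lower over all genes. Cxcl2, a neutrophil attractant, was at 792 CPM in Fbn1 C1039G/+ members and 3782 in wild type members, a ratio of 0.209 (0.201 to 0.219). Of cells thinned to 3000 UMIs, 37.1% of Fbn1 C1039G/+ members and 76.4% of wild type members held a Cxcl2 UMI (41.5% and 78.9% without thinning), against 0.754% and 2.54% of interstitial cells. Il1b was at 277 and 659 CPM in members, and Tnf at 49.9 and 169. Ccl3 and Ccl4, macrophage inflammatory chemokines, were at 190.03 and 445 CPM in Fbn1 C1039G/+ members, against 365 and 966 in wild type members. The gene that was higher was Ccl5, a chemokine that attracts T cells, at 197 CPM in Fbn1 C1039G/+ members and 79.7 in wild type members, although in female members its log2 ratio was -0.16. The 5 highest cells held 50.7% and 32.1% of its UMIs, and without them it was at 98.7 and 55.2 CPM and passed. Cxcl2, Il1b, Egr1, Atf3, Nfkbia and Cd83 were lower in Fbn1 C1039G/+ members in each sex: Cxcl2 was at 1008 CPM in Fbn1 C1039G/+ females and 4325 in wild type females, and at 689.9 and 3579 in males.

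Ccl8, a chemokine of resident-type macrophages on chromosome 11 (82115185 to 82116799), was among the 12 lowest ratios. It was at 62.9 CPM in Fbn1 C1039G/+ members and 581 in wild type members, and the 5 highest cells held 71.6% and 45.4% of its UMIs. Without those cells of each library it was at 18.2 and 322 CPM. The values differed by sex. Female members had 96.3 CPM in the Fbn1 C1039G/+ library (81.2 to 113) and 108 in the wild type library (92.5 to 126), while male members had 39.0 (27.0 to 54.5) and 1171 (1118 to 1225). In low macrophages Ccl8 was at 781 CPM in the Fbn1 C1039G/+ library and 820.4 in the wild type library and did not pass. Across the bands of members Ccl8 was at 49.3, 79.8 and 60.1 CPM in the Fbn1 C1039G/+ library and 1220, 490.1 and 449 CPM in the wild type library. The cells of single mice within a pool cannot be told apart.

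**Figure D4:**
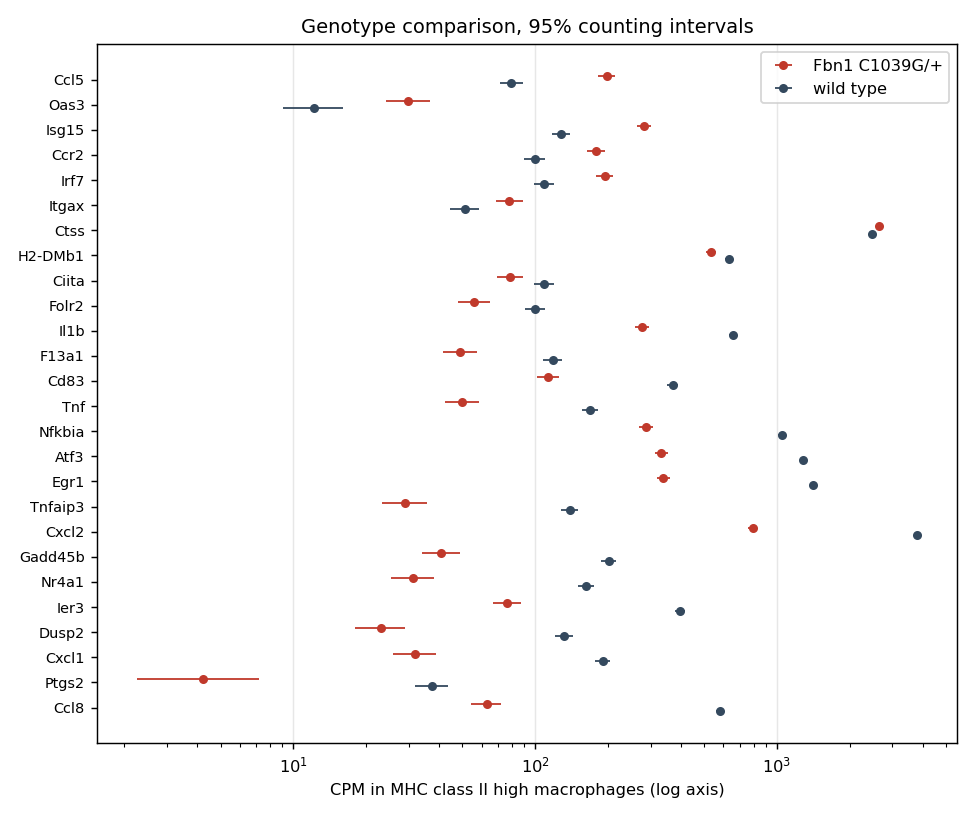
Levels in CPM (log axis) with 95% counting intervals of 26 genes in MHC class II high macrophages of the Fbn1 C1039G/+ library (red) and the wild type library (dark), ordered by ratio. Ccl8, Cxcl2, Egr1 and Nfkbia lie lower in the Fbn1 C1039G/+ library, Ctss and H2-DMb1 lie close together, and Ccr2, Irf7, Isg15 and Ccl5 lie higher.

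The class II genes differed little between genotypes within members. Cd74 was at 25184 CPM in Fbn1 C1039G/+ members and 22856 in wild type members, H2-Eb1 at 8497 and 7913, H2-Ab1 at 7772 and 7615 and H2-Aa at 7196 and 7349. These genes chose the members, so their levels are a description. Ciita was at 78.8 CPM (69.2 to 89.4) in Fbn1 C1039G/+ members and 109 (98.9 to 119) in wild type members, a ratio of 0.725 (0.618 to 0.849) that did not reach 1.5-fold. The lists in this paragraph stand beside 2.53% higher and 5.05% lower over all genes. Of 9 measured accessory and loading genes, 0 were higher and 1 was lower, with a median log2 ratio of -0.19. That gene was Cd83, whose product keeps class II at the surface against the ubiquitin ligase encoded by March1. Cd83 was at 113 CPM in Fbn1 C1039G/+ members and 370 in wild type members, a ratio of 0.306 (0.272 to 0.344), and March1 at 66.2 and 75.4. In low macrophages Cd83 was at 105 and 331 CPM, so it was lower there as well. Of 6 measured costimulation genes 1 was lower: Tnfsf9, the ligand of 4-1BB, was at 13.9 and 21.5 CPM, and its log2 ratio was 0.05 in female members. Cd86 was at 196 and 204 CPM and Cd40 at 16.9 and 20.3, and neither passed. The class I list had 0 of 13 in either direction.

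**Figure D5:**
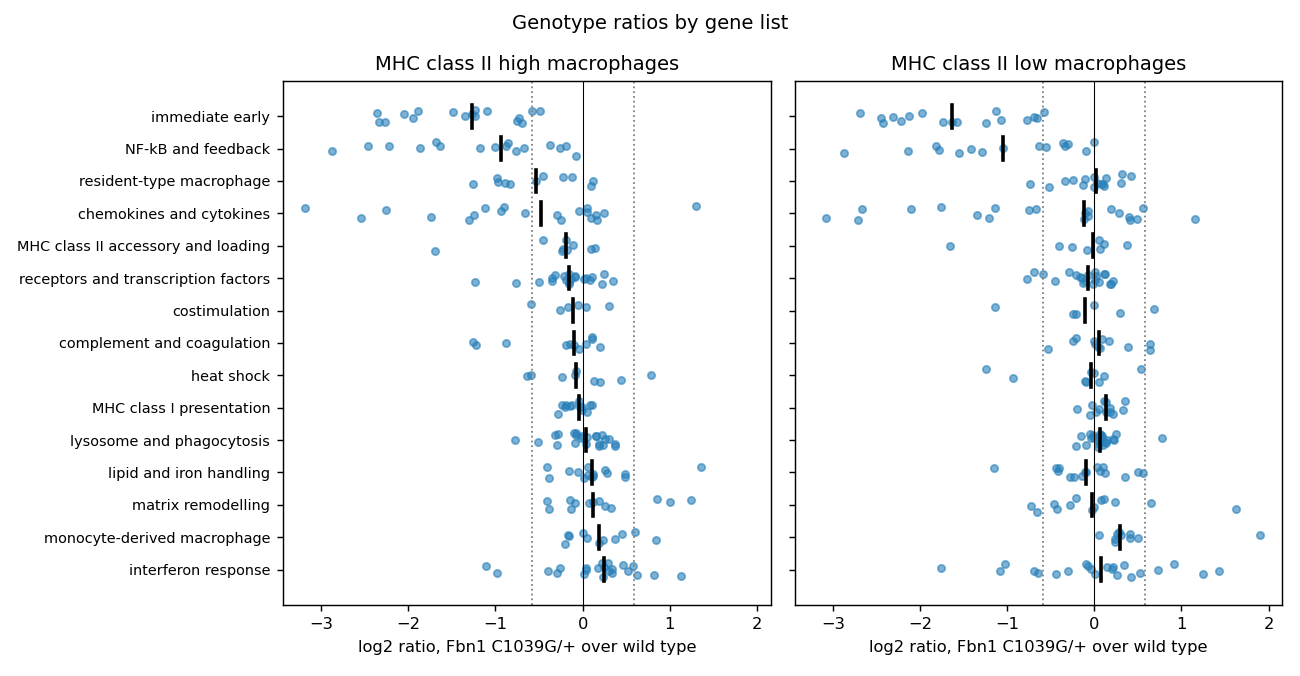
Points are log2 ratios, Fbn1 C1039G/+ over wild type, of the measured genes of 15 lists in MHC class II high macrophages (left) and low macrophages (right), with a bar at each list's median and dotted lines at 1.5-fold. The lists are ordered by their median in high macrophages, which runs over -1.26 for immediate early genes to 0.24 for interferon response genes. Resident-type genes have medians of -0.54 in high and 0.02 in low macrophages.

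Some genes of resident-type macrophages were lower and Ccr2 was higher in Fbn1 C1039G/+ members. Of 11 measured resident-type genes, 0 were higher and 5 lower, with a median log2 ratio of -0.54. Over all genes 2.53% were higher and 5.05% lower. F13a1, the A chain of coagulation factor XIII, was at 49.0 CPM in Fbn1 C1039G/+ members and 118 in wild type members. Folr2 was at 55.8 and 99.8, Cbr2, a carbonyl reductase, at 63.9 and 119.7, and Cd163, the haemoglobin-haptoglobin receptor, at 14.9 and 30.4. Clec10a, a galactose-binding lectin also found on dendritic cells, was at 15.9 and 32.1. Mrc1, the mannose receptor, was at 349 CPM in Fbn1 C1039G/+ members and 507 in wild type members and did not pass, nor did Gas6, Pf4, Wwp1, Stab1 and Igf1, of which Stab1 and Igf1 had log2 ratios of 0.12 and 0.10. Lyve1 and 4 other genes did not reach the filter in members. In low macrophages, 0 were higher and 1 lower of 16, with a median of 0.02, beside 2.22% higher and 4.69% lower over all genes. The difference between the effects in high and low macrophages was not tested.

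The sexes gave different counts within members. In female members 0 were higher and 1 lower of 12, with a median of -0.09, and in male members 0 were higher and 8 lower of 11, with a median of -0.88. Over all genes, 267 of 5817 were higher in female members and 264 of 5417 in male members. The higher ones were 43.99% and 40.55% of the genes that passed in that sex. This background by sex, and not that of all members, belongs to each count by sex here and below. Folr2 was at 73.7 CPM in Fbn1 C1039G/+ females and 75.6 in wild type females, and at 48.1 and 148 in males. Leaving out cells with any UMI of the dendritic, T, B, endothelial, mural, melanocyte, neutrophil or mast cell markers, or with more than a trace of collagen, kept 91 Fbn1 C1039G/+ and 82 wild type members. These are called members without markers of other cell types below, although haemoglobin and natural killer cell genes were not used. Among them, 0 of 8 measured resident-type genes passed, with a median log2 ratio of -0.07, and over all genes 157 of 2842 were lower. Clec10a was on the resident-type and the dendritic list, so this choice removes cells that hold it.

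Monocyte-derived genes had 2 higher and 0 lower of 11, with a median of 0.18, beside 2.53% higher and 5.05% lower over all genes. The count was 5 and 0 of 12 in female members but 1 and 3 of 12 in male members, and 3 and 3 of 15 with no CPM filter. For the sexes the background by sex given above applies. Ccr2 was at 179 CPM (164 to 194) in Fbn1 C1039G/+ members and 99.4 (90.02 to 109) in wild type members, a ratio of 1.80 (1.58 to 2.05). It was at 149 and 116 CPM in Fbn1 C1039G/+ and wild type females and at 174 and 89.4 in males, and in females it did not pass. Among the 91 and 82 members without markers of other cell types, Ccr2 and Isg15 also kept their direction but did not pass, at log2 ratios of 0.30 and 0.46. Itgax was at 78.2 and 51.2 CPM. Thinned cells with a Ccr2 UMI were 18.3% of Fbn1 C1039G/+ members and 12.7% of wild type members. Ccr2 was also higher in low macrophages, at 24.8 CPM in the Fbn1 C1039G/+ library and 5.89 in the wild type library, but these levels rest on few cells. Without thinning, 10 Fbn1 C1039G/+ and 5 wild type low macrophages held a Ccr2 UMI. These were 2.94% (1.42% to 5.34%) and 1.99% (0.650% to 4.59%) of low macrophages, and the intervals overlap.

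Interferon response genes had 4 higher and 2 lower of 22, with a median of 0.24, beside 2.53% higher and 5.05% lower over all genes. Isg15, a ubiquitin-like modifier, was at 281 CPM in Fbn1 C1039G/+ members and 128 in wild type members, a ratio of 2.21 (1.98 to 2.46). Irf7, the factor that amplifies type I interferon, was at 194 and 109 CPM, and Oasl2 and Oas1a, of the oligoadenylate synthetase family, were also higher. Irf1 and Gbp2, which respond to interferon gamma, were lower, at 59.7 and 38.6 CPM in Fbn1 C1039G/+ members against 129.5 and 77.1 in wild type members. Gbp2 turned to a log2 ratio of 0.17 in male members, and Oasl2 to -0.0019 in female members, and without its 5 highest cells Oasl2 was 1.38-fold higher and did not pass. The counts differed by sex. In male members 12 were higher and 1 lower of 22, with a median of 0.73, and in female members 1 was higher and 2 lower of 20, with a median of -0.01. Over all genes, 264 of 5417 were higher in male members and 267 of 5817 in female members. Isg15 was at 152 CPM in Fbn1 C1039G/+ females and 96.1 in wild type females, and at 481 and 98.9 in males. Thinned to 3000 UMIs, 26.5% of Fbn1 C1039G/+ members and 17.9% of wild type members held an Isg15 UMI (38.0% and 33.0% without thinning). Interstitial cells gave 22.6% in the Fbn1 C1039G/+ library and 12.5% in the wild type library, so the transcript was not restricted to macrophages, and its share was also higher in Fbn1 C1039G/+ cells of that type. In low macrophages 4 were higher and 5 lower of 22, beside 2.22% higher and 4.69% lower over all genes.

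The remaining lists stand beside 2.53% higher and 5.05% lower over all genes. Complement and coagulation genes had 0 higher and 3 lower of 11: F13a1, C3, the central complement protein, at 21.1 CPM in Fbn1 C1039G/+ members and 39.5 in wild type members, and Cfb, the factor B of the alternative pathway, at 19.1 and 46.0. In female members the log2 ratio of Cfb was 1.17. Lysosome and phagocytosis genes had 0 higher and 1 lower of 23, the scavenger receptor Cd36 at 58.4 and 100.3 CPM, whose log2 ratio turned to 0.15 in female members and 0.032 among members without markers of other cell types. Lipid and iron handling genes had 1 higher and 0 lower of 15, namely Spp1, osteopontin, at 78.5 CPM in Fbn1 C1039G/+ members and 29.9 in wild type members. Spp1 was higher in each sex, at 59.1 and 20.5 CPM in Fbn1 C1039G/+ and wild type females and 63.0 and 32.75 in males. Macrophage receptors and transcription factors had 0 higher and 2 lower of 21, Klf4 and Cebpb, while Csf1r was at 710.5 and 795 CPM and Cx3cr1, the fractalkine receptor, at 948 and 835. Heat shock genes had 1 higher and 2 lower of 9, with Hspa1b at 171 and 99.1 CPM, Dnajb1 at 83.0 and 126 and Hspb1 also lower. The heat shock list had 2 higher and 0 lower of 9 in female members and 0 and 2 of 9 in male members, to be set beside the background by sex. In male members Hspa1b had a log2 ratio of -0.16. Hspb1 turned to 1.62 among members without markers of other cell types and to 0.36 among members with at least 4% class II UMIs, and did not pass without its 5 highest cells (-0.14).

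Matrix remodelling genes had 3 higher and 0 lower of 13. The count was 1 and 3 of 10 in female members and 1 and 1 of 11 in male members, to be set beside the background by sex. At a 2% threshold or without the highest Scrublet scores 1 gene was higher. Mmp12, macrophage elastase, was at 405 CPM in Fbn1 C1039G/+ members and 224 in wild type members, a ratio of 1.81 (1.66 to 1.97), and the 5 highest cells held 39.6% and 21.5% of its UMIs. Without them it was at 249 and 179 CPM, under 1.5-fold. Female members had 595 CPM in the Fbn1 C1039G/+ library and 223.5 in the wild type library, and male members 282 and 216. Fn1, fibronectin, and Timp1, an inhibitor of metalloproteinases, rested on few cells, which held 84.4% and 88.0% of their UMIs in the Fbn1 C1039G/+ library, and neither passed without them.

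In low macrophages the same lists had 2 higher and 0 lower of 12 for complement and coagulation, 1 and 0 of 23 for lysosome and phagocytosis, 0 and 1 of 16 for lipid and iron handling, 0 and 3 of 21 for receptors and transcription factors, 0 and 2 of 9 for heat shock and 2 and 2 of 13 for matrix remodelling. These counts stand beside 2.22% higher and 4.69% lower over all genes in low macrophages. Chemokines and cytokines had 1 and 10 of 21 there, with a median of -0.12 that moved to -0.69 at a threshold of 0.5%, -0.42 at 2%, -0.78 without the highest Scrublet scores and -1.63 without cells with markers of other types.

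The 12 highest ratios in members belonged to Mmp3, Retnla, Asgr2, Dppa3, Clu, Eln, Spp1, Cd209a, Ccl5, Fn1, Tspan32 and Oas3. For 6 of them, Mmp3, Retnla, Asgr2, Eln, Cd209a and Fn1, the 5 highest Fbn1 C1039G/+ cells held 84.2% to 100% of the UMIs. Dppa3, an epigenetic regulator of early development, was at 24.97 CPM in Fbn1 C1039G/+ members and 7.90 in wild type members. Tspan32, a tetraspanin, was at 21.1 and 8.38, and Oas3 at 29.8 and 12.2. Without the 5 highest cells of each library, Oas3 passed at 23.7 and 8.99 CPM. Dppa3, at 15.1 and 4.10, and Tspan32, at 17.75 and 6.35, then fell under the 20 CPM filter. Their ratios of 3.68 and 2.80 still had intervals excluding 1. The 12 lowest were Ccl21a, Igfbp5, Igfbp3, Ccl8, Ptgs2, Acta2, Cxcl1, Dusp2, Prnp, Ier3, Nr4a1 and Gadd45b. Of these, Ccl21a, a chemokine with near-identical copies in mice whose counts are uncertain, was at 0 CPM in Fbn1 C1039G/+ members and 57.9 in wild type members, where the 5 highest cells held 100% of its UMIs. Igfbp5, Igfbp3 and Acta2, genes of interstitial and mural cells, had 94.1%, 89.4% and 89.0% of their wild type UMIs in the 5 highest cells. Cxcl1, a neutrophil attractant, was at 31.8 CPM in Fbn1 C1039G/+ members and 189.9 in wild type members. Ier3 was at 76.5 and 396 CPM and Gadd45b at 40.9 and 201.

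Signs of other cells also differed between the libraries. Hbb-bs, a haemoglobin chain, was at 122 CPM in Fbn1 C1039G/+ members and 54.1 in wild type members, and at 314 and 37.3 in low macrophages. The 5 interstitial markers summed to 745 CPM in Fbn1 C1039G/+ members and 917 in wild type members. Their part in the genotype results was not tested. The immediate early list had 0 higher and 15 lower of 16 among the 91 and 82 members without markers of other cell types, with a median of -1.39. Over all genes 157 of 2842 were lower among them. That choice of cells did not use haemoglobin genes and allowed a trace of collagen, so it does not remove the signs of other cells named here.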

How the data were processed

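Single-cell RNA-seq of mouse mitral valves (10x Chromium 3′ v3.1 chemistry) gave 1 library per genotype. The authors deposited raw UMI counts per gene and barcode. Cell Ranger 3.1.0 is named in the submitters' processing notes and 5.0.1 in the file headers, with mm10; the difference could not be settled. The members, gene lists and tests were chosen with earlier results of these data known.

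Barcodes with at least 1000 UMIs, at least 500 genes and at most 20% mitochondrial UMIs were kept. UMIs were summed per cell class and library and scaled to CPM of all UMIs of the sum. The 95% intervals are exact: Poisson for a level, conditional binomial for a ratio and Clopper-Pearson for a share. A difference between shares has a Newcombe interval. These cover counting error only, since cells are not replicates. Log2 ratios use a pseudocount of 1 CPM. A gene passed at 1.5-fold or more with an interval excluding 1, among genes at 20 CPM or more in either sum and at 50 UMIs or more over both. The calculation was run on simulated independent Poisson counts, the same model as the intervals, so that run checks the arithmetic only. It left out the gathering of UMIs in few cells. For shares of cells with a UMI, cells were thinned to 3000 UMIs. Interstitial cells had at least 2% collagen and decorin UMIs. Doublets were not removed. Leaving out the highest Scrublet scores, an alternative, took 8 Fbn1 C1039G/+ and 19 wild type members, and the automatic call marked 0.0318% and 0.0218% of barcodes, which is too few to rely on.

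Named genes were the 12 highest and 12 lowest past the rule in each contrast, the rule genes and markers, Fbn1, the accessory and costimulation lists, and up to 6 genes of each other list with the largest ratios, leaving out mitochondrial, ribosomal protein, haemoglobin and immunoglobulin genes and gene models. Other named genes, and those given by sex, were chosen after their values were seen. Of 32285 gene rows, 32235 matched GENCODE M21, which gave coordinates. Alternatives covered thresholds, filters, scaling, doublets, sex, cells with other types' transcripts, fold and pseudocount. Python 3.11.15, numpy 2.4.6, scipy 1.17.1, pandas 2.3.3, scanpy 1.11.5 and matplotlib 3.10.9 were used.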

Additional observations from a re-analysis of the deposited data

Results flagged for a closer look

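Opposite directions in MHC class II high and low macrophages were seen for 3 named genes, and the difference was not tested for any of them. Cfb, factor B of the alternative complement pathway, had a log2 ratio, Fbn1 C1039G/+ over wild type, of -1.22 in high macrophages and 0.64 in low macrophages. In female high macrophages Cfb had a log2 ratio of 1.17. Clu, the extracellular chaperone clusterin, had 1.403 in high and -0.68 in low macrophages, and within high macrophages -0.75 in female and 1.75 in male cells. The 5 highest cells held 74.5% of its Fbn1 C1039G/+ UMIs and 57.9% of its wild type UMIs. Timp1, a metalloproteinase inhibitor, had 1.00 in high and -0.72 in low macrophages, and the 5 highest cells held 88.0% and 77.5% of its Fbn1 C1039G/+ and wild type UMIs in high macrophages. Among high macrophages Timp1 had a log2 ratio of -1.98 in females, -1.10 in males and 0.13 without those 5 cells.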

How the results depend on the processing

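No paired analysis was possible because the genotypes share only 1 replicate number and have 1 library each. With 1 library per genotype, depth limits only the counting error. Some alternatives kept the counts over all genes, and over all list genes together, within 1.5 times. These were a threshold of 0.5% or 2%, a C1q minimum of 20 UMIs, a minimum of 4000 UMIs and leaving out the highest Scrublet scores. Counts of single lists moved further. Matrix remodelling genes high over low were 4 higher and 3 lower, but 1 and 6 at the 2% threshold. A pseudocount of 5 CPM cannot move a count, because it enters the log2 values only and not the ratios that are called. The causes of the changes below were not tested, except that fewer genes or cells enter under some filters. Log2 values are ratios in members, Fbn1 C1039G/+ over wild type, unless high over low is named.

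With a 100 CPM filter, 42 genes were higher and 148 lower in high macrophages than in low ones, 19 higher and 73 lower in Fbn1 C1039G/+ members, and 26 and 74 in low macrophages, with 6 list genes higher. With no CPM filter the high over low count was 218 higher, the genotype counts 380 and 678 in members and 328 and 563 in low macrophages. With a fold of 2 they were 44 and 176 high over low, 28 and 102 in members, 38 and 108 in low macrophages, and 5 and 33 among list genes (12 and 52 at 1.5-fold). Median-of-ratios scaling gave 266 and 328 high over low, totals without class II, mitochondrial and ribosomal protein genes 240 higher, and the mean of cell CPM 214 higher between genotypes in low macrophages.

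In female cells 267 genes were higher in members and 243 in low macrophages. Reversed there were Ccl5 (-0.16), Cd36 (0.15), Cebpb (0.056), Cfb (1.17), Clec10a (0.18), Clu (-0.75), Eln (-1.17), Fn1 (-0.55), Oasl2 (-0.0019), Timp1 (-1.98), Tnfsf9 (0.049) and, high over low, Pmel (0.10). In male cells the share of members differed by -14.36 points, 264 genes were higher between genotypes, and 77 were higher and 355 lower high over low. Reversed were Cd209a and Retnla (-2.59 each), Gbp2 (0.17), Hspa1b (-0.16), Mmp3 (-1.92), Timp1 (-1.10) and, high over low, Pmel (0.24) and Tyrp1 (0.040).

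Without cells holding transcripts of other types the share differed by -17.77 points, 38 genes were higher and 121 lower high over low, and 157 were lower between genotypes in members and 144 in low macrophages. Reversed were Acta2 (1.24), Asgr2 (-0.68), Cd36 (0.032), F13a1 (0.053), Fn1 (-0.34), Hspb1 (1.62) and, high over low, Cxcl9 (-1.19). Without the highest Scrublet scores, Eln (-0.54), Fn1 (-0.83), Mmp3 (-0.87) and, high over low, Fn1 (-0.58) reversed, and at the 0.5% threshold Pmel (0.50, high over low).

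Chosen after seeing the data, members with at least 4% class II UMIs gave 242 higher genes, a lipid and iron list median of -0.0047, and reversed Eln (-1.04), Hspb1 (0.36) and Mmp3 (-0.83). Leaving out the 5 highest cells per gene reversed Asgr2 (-0.11) and Mmp3 (-0.48).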
